A study of Mus musculus with 12 samples.

Results

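The genes followed here were 9 aldehyde dehydrogenases (Aldh3a1, Aldh1a3, Aldh1b1, Aldh2, Aldh3a2, Aldh7a1, Aldh9a1, Aldh18a1 and Aldh1l2) and the alcohol dehydrogenase Adh7. They were taken by symbol from the count tables and make up 10 of the 24421 gene symbols counted in each library. For Adh7, symbol and identifier disagree in these tables. The identifier beside the symbol Adh7 is that of Adh1 in RefSeq, while the RefSeq identifier of Adh7 stands beside the symbol Adh4, whose row was at 0 in all 12 libraries. Every Adh7 value below therefore rests on the symbol, and by identifier Adh7 would have no counts. RNA sequencing was performed in B16F10 cells, an established mouse melanoma line, with 3 replicates in each of 4 groups. Control cells received the solvent DMSO, given in the labels as 0.025%. DAC cells received 5-aza-2'-deoxycytidine, a nucleoside analog that inhibits DNA methylation, at 25 nM for 72 h. SFN cells received sulforaphane, an isothiocyanate from cruciferous vegetables, for 48 h. DAC+SFN cells received DAC at 25 nM for 72 h, with SFN in the last 48 h. The labels give the SFN dose as 5 nM in the single treatment and as 5 µM in the combination, while the study's methods give the micromolar dose for both, so by the labels the dose differs between the SFN and DAC+SFN groups. All groups are 1 cell line in culture, and the methods describe the repeats as independent cultures.

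Aldehyde dehydrogenases oxidize reactive aldehydes to carboxylic acids with NAD or NADP as the electron acceptor, and alcohol dehydrogenases make aldehydes from alcohols one step earlier. The family clears the aldehydes of lipid peroxidation, makes retinoic acid from retinal, and also holds enzymes of amino acid and folate metabolism that do not serve detoxification. SFN reacts with cysteines of KEAP1 and so frees the transcription factor NRF2, which binds antioxidant response elements (AREs) near genes of detoxification. Aldehyde dehydrogenase activity is widely used as a marker of stem-like cells in tumors, melanoma included.

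The 250 bases before the RefSeq start site were on hand for 5 of the 10 genes (Aldh1b1, Aldh3a2, Aldh9a1, Aldh18a1 and Adh7). The windows of the 3 of them whose transcripts moved with SFN are shown, on build GRCm38.p6 and read 5' to 3' on the strand of the gene. Capitals mark a match to 1 of 2 motifs, searched on both strands. These were the ARE core TGACNNNGC, which lies in 10.2% of 32851 windows of this length, and the E-box CACGTG, bound by basic helix-loop-helix factors such as USF and MYC, which lies in 6.02% of them. Matches of both can overlap in part, which did not occur in these windows.
Adh7, chr3:138217523-138217772, plus strand: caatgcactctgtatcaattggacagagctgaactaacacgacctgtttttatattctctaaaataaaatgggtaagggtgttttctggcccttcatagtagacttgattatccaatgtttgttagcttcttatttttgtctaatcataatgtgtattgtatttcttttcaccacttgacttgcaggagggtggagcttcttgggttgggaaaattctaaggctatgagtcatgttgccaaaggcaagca
Aldh9a1, chr1:167349741-167349990, plus strand: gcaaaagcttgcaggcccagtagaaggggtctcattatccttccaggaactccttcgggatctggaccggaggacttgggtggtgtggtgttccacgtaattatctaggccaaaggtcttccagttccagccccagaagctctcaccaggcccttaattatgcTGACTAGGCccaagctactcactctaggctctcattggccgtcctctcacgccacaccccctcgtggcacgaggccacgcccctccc
Aldh18a1, chr19:40588464-40588713, minus strand: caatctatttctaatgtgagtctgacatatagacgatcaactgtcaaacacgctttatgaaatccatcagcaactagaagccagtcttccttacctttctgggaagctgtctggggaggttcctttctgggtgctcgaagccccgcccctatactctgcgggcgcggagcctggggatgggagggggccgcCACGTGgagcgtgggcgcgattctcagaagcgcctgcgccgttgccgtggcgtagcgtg
The Adh7 window held neither motif. The window of Aldh9a1 held 1 ARE core match 87 bases before the start, and that of Aldh18a1 held 1 E-box 59 bases before the start. Of the windows not shown, that of Aldh3a2, which was not called with SFN, also held 1 E-box, 30 bases before the start, and that of Aldh1b1 held neither motif. A match is a run of letters and was not tested for binding.

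Between 15880957 and 27291436 reads per library were counted on genes, so that 1 CPM (a count scaled to 1e+06 counts of its library) stood for 15.88 to 27.29 counts. All 10 genes described here passed the filter on low counts (1 CPM or more in 3 or more libraries), as did 11638 of all symbols. A gene was called when edgeR's quasi-likelihood F-test gave it a p-value under 0.05 after adjustment by Benjamini and Hochberg, and counted as changed when its fold change was also above 2. The replicate number was a block in the model, in place of the batch that the study corrected for. The 7 markers of the melanocyte lineage were all tested and summed to between 21417 and 30155 CPM per library. Leukocyte and keratinocyte markers had at most 2 counts in any library, the endothelial markers at most 11 with Cdh5 at 0, and the fibroblast markers summed to 2.45 to 9.85 CPM. Of the 2 fibroblast markers tested, 1 was called lower in each comparison of SFN or DAC+SFN with control and of DAC+SFN with DAC, and in SFN against control both had log2 fold changes of -0.84 to -0.77. With DAC+SFN, 2 of the 7 melanocyte markers were called lower, Pmel (log2 fold change -0.36) and Tyrp1 (-0.17), and with DAC+SFN against DAC 1 was called higher. The part of these markers in the results below was not tested. In RNA from whole cultures, a change in RNA per cell and a change in the share of cells that express a gene cannot be told apart.

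In control cells, Aldh18a1, Aldh9a1 and Aldh2 were the most abundant of the 10 genes per length, and the 3 genes that were higher with SFN were among the 4 least abundant. On a scale of CPM per kb of exon, Aldh18a1 stood first (47.0 ± 1.58, SD, n = 3), followed by Aldh9a1 (35.99 ± 2.58) and Aldh2 (35.1 ± 2.25). The levels of Aldh9a1 and Aldh2 did not differ beyond their spread. Aldh1l2 came next at 19.1 ± 5.18 CPM per kb. Aldh3a2 (8.79 ± 0.299) and Aldh7a1 (8.55 ± 0.367) had overlapping levels per kb, and Adh7 followed with 4.42 ± 1.83. Aldh1a3 had 1.36 ± 0.138 and Aldh1b1 0.965 ± 0.224 CPM per kb, and Aldh3a1 was last with 0.0315. With SFN, Aldh2 stood first at 39.95 ± 3.38 CPM per kb, and Adh7 rose in this order from position 7 to position 5 at 11.6 ± 5.35 CPM per kb. With SFN, the Adh7 range of 8.09 to 17.8 CPM per kb overlapped that of Aldh1l2, Aldh3a2 and Aldh7a1.

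**Figure D1:**
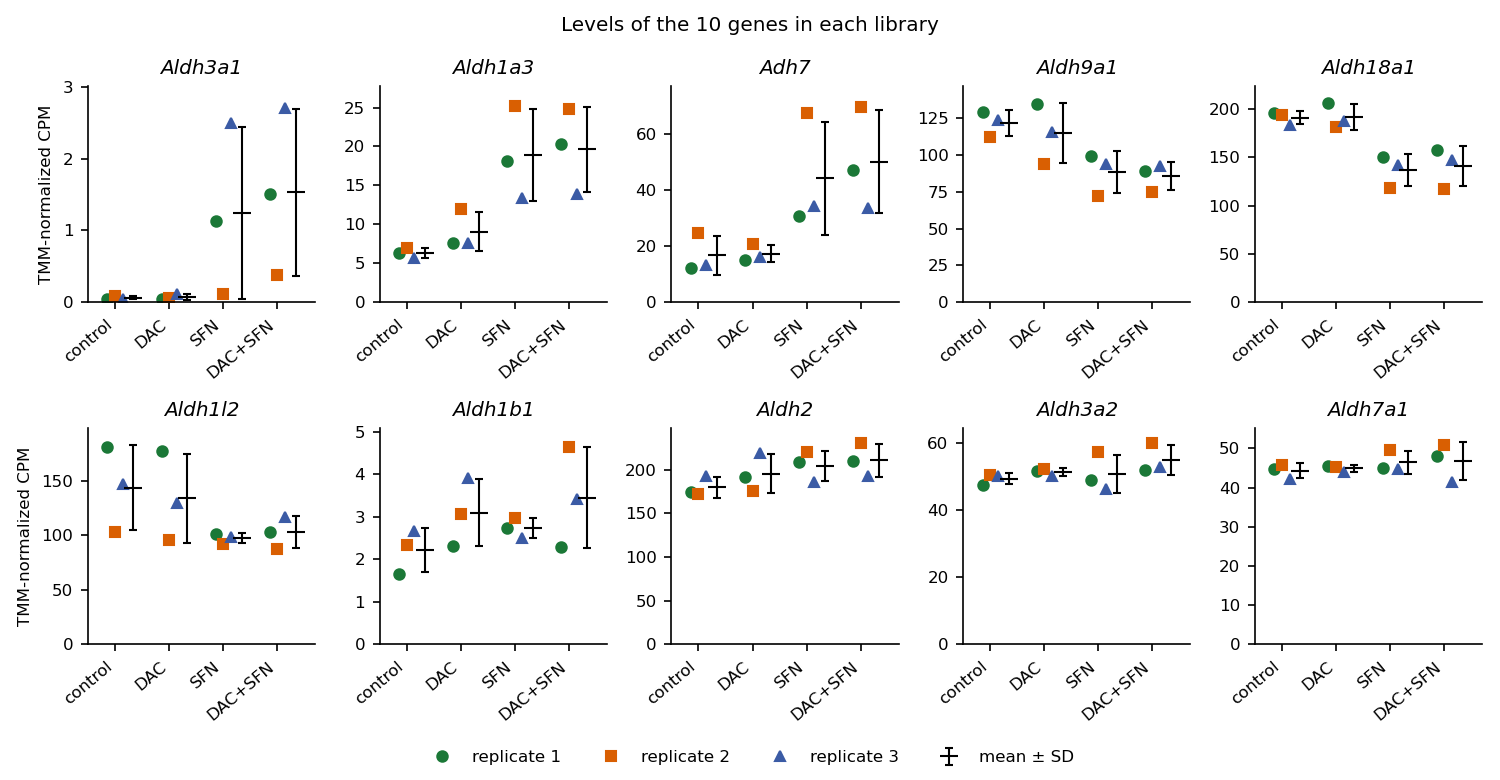
Each panel plots TMM-normalized CPM (y axis, from 0) of 1 gene in the 12 libraries by group (x axis). Symbols are single libraries coded by replicate number and black bars are the mean ± SD of 3. In the Aldh1a3 and Adh7 panels every library with SFN lies above every library without it, and Aldh3a1 is near 0 without SFN and in replicate 2 with SFN alone.

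The single treatment with SFN was compared with control to ask how the family responded to the isothiocyanate. With SFN, Aldh3a1, Aldh1a3 and Adh7 rose by more than 2-fold, and Aldh9a1, Aldh18a1 and Aldh1l2 fell by 28.0% to 30.2%. The other 4 genes (Aldh1b1, Aldh2, Aldh3a2 and Aldh7a1) were not called, with log2 fold changes between 0.04 and 0.32. Thus 3 of 10 genes were higher, where 8.27% of all tested genes were called higher, and 3 of 10 were lower, where 5.65% of all were called lower. All 3 that rose passed the 2-fold limit, which 1.08% of all genes did in that direction. The libraries of both groups did not overlap in 6 of 10 genes, against 20.8% of all genes. The median log2 fold change was 0.13 over the 10 genes and 0.00 over all genes tested, since rising and falling members offset each other. Aldh3a1 passed the filter on low counts only through libraries with SFN and therefore had to differ, so it adds nothing to these counts, and of the other 9 genes 2 rose and 3 fell. Without the replicate block, Aldh1a3 alone remained below 0.05 (adjusted p = 0.0379), and the other 5 genes had adjusted p-values of 0.0978 to 0.261. The same refit lowered the number of called genes among all genes from 1619 to 23.

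Aldh3a1 is the crystallin of the cornea and oxidizes medium-chain and lipid peroxidation aldehydes. The gene lies on chromosome 11 from 61207537 to 61218421 on the plus strand (mm10), next to Aldh3a2. It had 1, 2 and 1 raw counts in the control replicates 1, 2 and 3, and 24, 3 and 61 counts in the SFN replicates. Replicates 1 and 3 with SFN were thus far above every control, whereas replicate 2 with SFN was 1 count above its control. The log2 fold change of Aldh3a1 with SFN was 4.06 (adjusted p = 0.000551, SE 0.61). With 1 or 2 counts in each control library, this fold is best read from the summed counts, whose ratio was 19.6 with a 95% interval of 7.40 to 73.6 that covers counting error only. The ratio was 24.6 (4.00 to 1010) in replicate 1 and 48.6 (8.39 to 1949) in replicate 3, but 1.31 (0.150 to 15.7) in replicate 2. The counting intervals of replicates 2 and 3 overlap, with 1 or 2 counts in each control. In the SFN libraries alone, Aldh3a1 had 0.113 CPM in replicate 2 and 2.49 CPM in replicate 3, a difference that was not tested. The log2 fold change was 5.03 when the 4 libraries of replicate number 2 were left out, an alternative chosen after the data were seen. With single libraries left out it ranged from 3.15 to 4.95, and the lowest value under the other alternatives was 2.98.

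Replicate 2 was compared with the others for Aldh1a3, Adh7 and the NRF2 targets as well. A list of 12 targets of NRF2 was higher with SFN than in control in 12 of 12 genes in each of the 3 replicates. Their median log2 difference was 0.72 in replicate 1, 0.89 in replicate 2 and 0.58 in replicate 3. In DAC+SFN against DAC, 12, 12 and 10 of the 12 were higher in replicates 1, 2 and 3. Aldh1a3 rose most in replicate 2, with log2 differences of 1.51, 1.85 and 1.23 in replicates 1, 2 and 3. Aldh3a1 was thus low in replicate 2 with SFN alone, while Aldh1a3, Adh7 and the NRF2 targets were higher there than in its control.

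**Figure D2:**
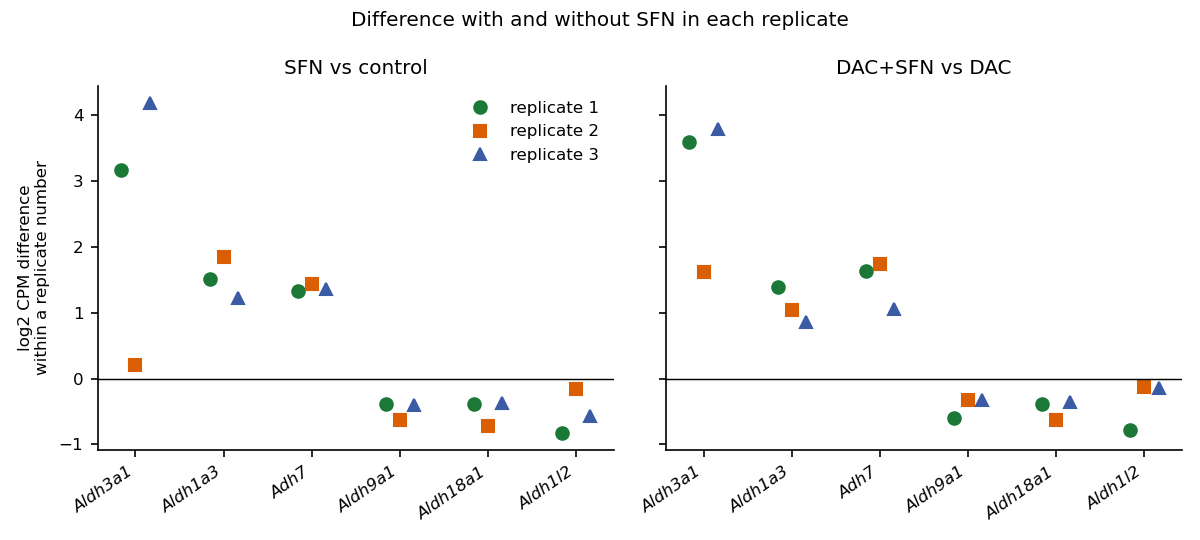
The y axis gives the difference in log2 CPM between a library with SFN and the library without it that carries the same replicate number, for SFN against control (left) and DAC+SFN against DAC (right). Each symbol is 1 replicate, and for Aldh3a1 replicate 2 lies at 0.21 on the left and 1.62 on the right, below the other 2.

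Aldh1a3, which makes retinoic acid from retinal, and Adh7, an alcohol dehydrogenase of epithelia that also oxidizes retinol, both rose with SFN. Aldh1a3 (chromosome 7, 66390890 to 66427517, minus strand) had 6.30, 6.93 and 5.65 CPM in control and 18.2, 25.2 and 13.4 CPM with SFN. Every SFN library was above every control library, and replicate 2 was highest in both groups. Its fold change was 2.95 (log2 1.56, adjusted p = 5.57e-06, SE 0.13), the smallest adjusted p-value among the 10 genes, and its direction and call held under all 15 alternatives tried. Adh7 (chromosome 3, 138217760 to 138233382, plus strand) had 12.2, 24.7 and 13.3 CPM in control and 30.6, 67.4 and 34.2 CPM with SFN. Replicate 2 was again highest in both groups and its control library stayed below the lowest SFN library. Within a replicate number, the log2 difference of Adh7 was 1.32, 1.44 and 1.36, and its fold change was 2.61 (log2 1.38, adjusted p = 1.87e-05, SE 0.14). Adh7 was followed by its symbol, and the row with the symbol Adh1, which carries the same identifier, held 36 to 72 counts against 259 to 1791 for Adh7. The log2 fold change of Adh1 with SFN was -0.42 (adjusted p = 0.158).

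Of 13 other genes of the retinoid pathway, 9 were tested. With SFN 1 of these was called higher and 0 were called lower by edgeR, against 8.27% and 5.65% of all genes, and their log2 fold changes ranged from -0.51 to 0.43. Genes with an unadjusted p under 0.05 that were not called went both ways. Crabp2, a carrier of retinoic acid named here after its value was seen, was lower (log2 fold change -0.51, SE 0.24, adjusted p = 0.170). Rdh11 was lower too (-0.16, adjusted p = 0.0668), and Rdh13 was higher (0.17, adjusted p = 0.166). The called gene was Dhrs3, which reduces retinal back to retinol, with a log2 fold change of 0.43 (adjusted p = 0.0268, SE 0.12). The genes not tested were Dhrs9, Cyp26a1 and Stra6, with at most 17 counts in any library, and Crabp1, which was at 0 in all of them. The retinoic acid receptor Rarb, itself a target of retinoic acid, had a log2 fold change of -0.20 with SFN (adjusted p = 0.348) and of -0.38 with DAC+SFN (adjusted p = 0.0401, SE 0.13). Rdh11, a retinal reductase, was also called lower with DAC+SFN (log2 fold change -0.23, SE 0.06, adjusted p = 0.00552). Dhrs3 was not called with DAC+SFN (log2 fold change 0.03, adjusted p = 0.882).

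Aldh9a1, Aldh18a1 and Aldh1l2 fell with SFN. Aldh9a1 oxidizes aminoaldehydes in the synthesis of carnitine and of GABA from polyamines (chromosome 1, 167349991 to 167368532, plus strand). It had 129, 112 and 124 CPM in control and 99.3, 72.1 and 93.8 CPM with SFN, with no overlap and replicate 2 lowest in both groups. It fell by 0.47 on the log2 scale (adjusted p = 0.000353, SE 0.07). Aldh18a1 makes pyrroline-5-carboxylate, the precursor of proline, from glutamate (chromosome 19, 40550257 to 40588463, minus strand). Its levels were 196, 194 and 184 CPM in control and 150, 118 and 143 CPM with SFN. The groups were again apart, and the difference was largest in replicate 2, at -0.71 against -0.38 and -0.37 in replicates 1 and 3 on the log2 scale. Over the 3 replicates, Aldh18a1 fell by 0.49 on the log2 scale (adjusted p = 0.000542, SE 0.07).

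Aldh1l2, the mitochondrial enzyme that oxidizes 10-formyltetrahydrofolate, varied widely among controls (chromosome 10, 83487450 to 83534140, minus strand). It had 180, 103 and 147 CPM in control replicates 1, 2 and 3, and 101, 92.1 and 98.6 CPM with SFN. The control of replicate 2 lay just above the highest SFN library, so the log2 difference was -0.83, -0.16 and -0.57 in replicates 1, 2 and 3. Aldh1l2 fell by 0.52 on the log2 scale (adjusted p = 0.00997, SE 0.12). This call was lost without control replicate 1 (adjusted p = 0.0781), without SFN replicate 1 (0.0780) and without SFN replicate 3 (0.0549). Of the exonic bases of Aldh1l2, 14.07% overlap D10Wsu102e on the opposite strand, and the strand setting of the counting is not given in the sources used here. D10Wsu102e had 934 to 1574 counts, and its log2 fold change with SFN was -0.02 (adjusted p = 0.910).

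Enzymes that work beside Aldh18a1 and Aldh1l2 were described from a list of 12 genes, all of which were tested. The list covers proline, mitochondrial folate and serine metabolism. Asns, from another pathway, is also in the list and in its counts. With SFN, 5 were called lower and 1 higher, where 5.65% and 8.27% of all genes were. Their median log2 fold change was -0.38, against 0.00 over all genes. Asns, the asparagine synthetase, fell by 0.65 on the log2 scale (adjusted p = 1.78e-05, SE 0.06), and Shmt2, which moves a carbon from serine to folate in mitochondria, fell by 0.62 (adjusted p = 1.78e-05, SE 0.06). Phgdh and Psat1, which make serine from a glycolytic intermediate, fell by 0.42 and 0.37 on the log2 scale, and the folate enzyme Mthfd2 fell by 0.39. The gene that rose was Prodh, which degrades proline, with a log2 fold change of 0.28 (adjusted p = 0.0289). Pycr1, which completes proline synthesis in mitochondria, had a log2 fold change of -0.55 and was not called (adjusted p = 0.0832). With DAC+SFN, 6 of the 12 were called lower and 1 higher, where 14.7% and 17.0% of all genes were. The median was -0.31, against 0.01 over all genes. Oat, which links ornithine to proline, joined those lower (fell by 0.23 on the log2 scale, adjusted p = 0.0125).

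**Figure D3:**
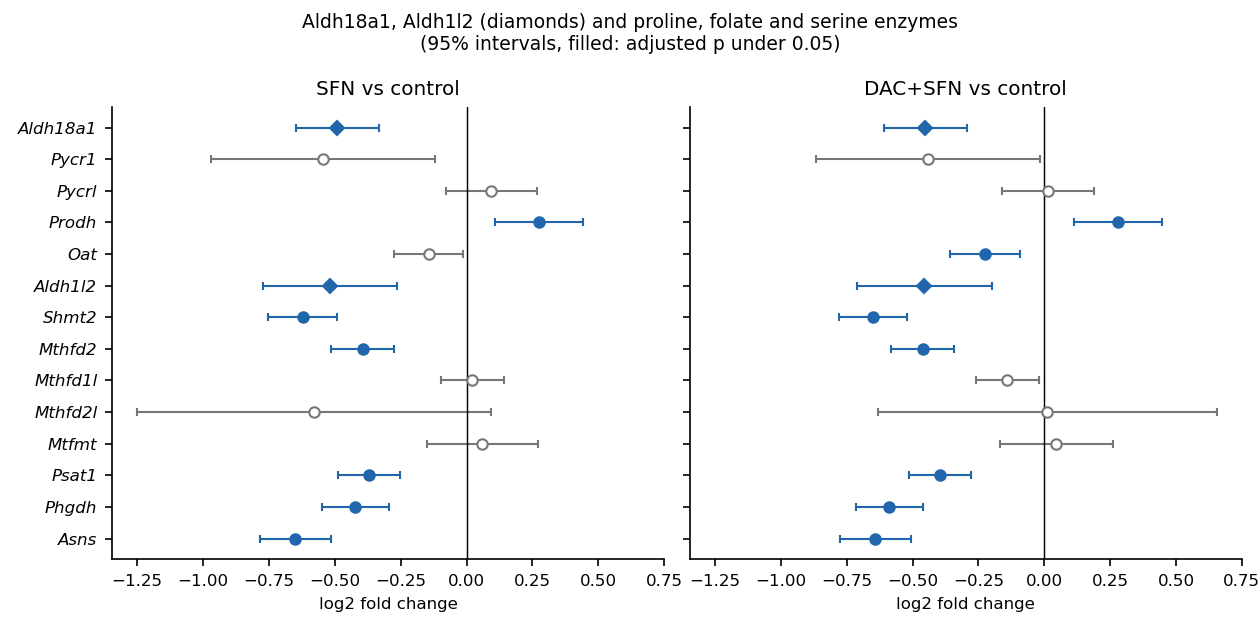
The x axis gives the log2 fold change with its 95% interval for SFN against control (left) and DAC+SFN against control (right), the y axis the genes. Diamonds are Aldh18a1 and Aldh1l2, circles the 12 listed enzymes, and filled symbols have an adjusted p under 0.05. Shmt2, Mthfd2, Psat1, Phgdh and Asns lie left of 0 with both diamonds, and Prodh lies right of it.

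The other 4 genes were not called with SFN. Aldh2, the main mitochondrial acetaldehyde dehydrogenase, ranged from 172 to 193 CPM in control and from 186 to 220 CPM with SFN (log2 fold change 0.19, 95% interval -0.01 to 0.38, adjusted p = 0.186). Aldh1b1, its mitochondrial relative, ranged from 1.66 to 2.67 CPM in control and from 2.49 to 2.97 CPM with SFN (log2 fold change 0.32, interval -0.17 to 0.80, adjusted p = 0.386). Aldh3a2, the fatty aldehyde dehydrogenase next to Aldh3a1 on chromosome 11, had 47.5 to 50.6 CPM in control and 46.3 to 57.3 CPM with SFN (log2 fold change 0.04, interval -0.10 to 0.18). Aldh7a1, an enzyme of lysine breakdown, had 42.2 to 45.9 CPM in control and 44.6 to 49.7 CPM with SFN (log2 fold change 0.07, interval -0.07 to 0.21). The intervals of Aldh3a2 and Aldh7a1 leave room for changes of at most 0.21 on the log2 scale, while that of Aldh1b1 is wider.

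The combination treatment was compared with control next. The same 6 genes were called as with SFN, in the same directions, and Aldh1b1 was added. The SFN and DAC+SFN comparisons share the control libraries, so this likeness is not independent. With DAC+SFN, 4 of 10 genes were higher, against 17.0% of all genes, and 3 of 10 were lower, against 14.7% of all. The 3 that passed the 2-fold limit were Aldh3a1, Aldh1a3 and Adh7, where 2.33% of all genes were that much higher. The groups did not overlap in 6 of 10 genes, against 29.4% of all. Aldh3a1 is in each of these counts except that of the lower genes. It had to differ, since it passed the filter only through libraries with SFN. Without it, 3 of 9 genes were higher, 2 of them past 2-fold, and the groups did not overlap in 5 of 9. The median log2 fold change was 0.19 over the 10 genes and 0.01 over all genes tested.

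Aldh3a1 had 33, 8 and 58 counts in the DAC+SFN replicates 1, 2 and 3, against 1, 2 and 1 in control. All 3 libraries were above every control, and replicate 2 was again the lowest. The ratio of summed counts was 24.8 (95% counting interval 9.40 to 92.9), and the log2 fold change was 4.43 (adjusted p = 8.77e-05, SE 0.59). In replicate 2 the ratio was 4.45 with an interval of 0.889 to 43.0. Aldh1a3 had 20.3, 24.8 and 13.9 CPM with DAC+SFN (log2 fold change 1.62, SE 0.13, adjusted p = 1.74e-06). Adh7 had 47.0, 69.7 and 33.6 CPM (log2 fold change 1.60, SE 0.14, adjusted p = 2.49e-06). For both genes every library with DAC+SFN was above every control.

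Of the falling genes, Aldh9a1 had 89.5, 75.0 and 92.8 CPM with DAC+SFN and fell by 0.51 on the log2 scale (adjusted p = 8.34e-05, SE 0.07). Aldh18a1 had 158, 118 and 147 CPM and fell by 0.45 (adjusted p = 0.000410, SE 0.07). Aldh1l2 had 103, 87.6 and 117 CPM and fell by 0.46 (adjusted p = 0.0101, SE 0.12). For Aldh1l2 the highest library with DAC+SFN exceeded the lowest control, so these groups overlapped. The call of Aldh1l2 was lost without control replicate 1 (adjusted p = 0.0745), without DAC+SFN replicate 1 (0.0810) and without the replicate block (0.170).

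Aldh1b1 had 1.66, 2.32 and 2.67 CPM in control and 2.28, 4.65 and 3.41 CPM with DAC+SFN. Its groups overlapped, and the highest value came from replicate 2. The log2 fold change was 0.63 (adjusted p = 0.0445, SE 0.22). The call was lost without DAC+SFN replicate 2 (log2 fold change 0.39, adjusted p = 0.278), without any 1 of the 3 controls (adjusted p = 0.0559 to 0.164), in DESeq2's Wald test (0.0725), with only the groups compared (0.0844), without the replicate block (0.174) and with all libraries of replicate number 2 left out (0.372). Aldh2 had a log2 fold change of 0.23 (adjusted p = 0.0654), Aldh3a2 of 0.15 (0.0978) and Aldh7a1 of 0.08 (0.409). Aldh2 was called under 3 alternatives, among them DESeq2's Wald test (adjusted p = 0.0477) and the fit without DAC+SFN replicate 3 (0.0139).

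**Figure D4:**
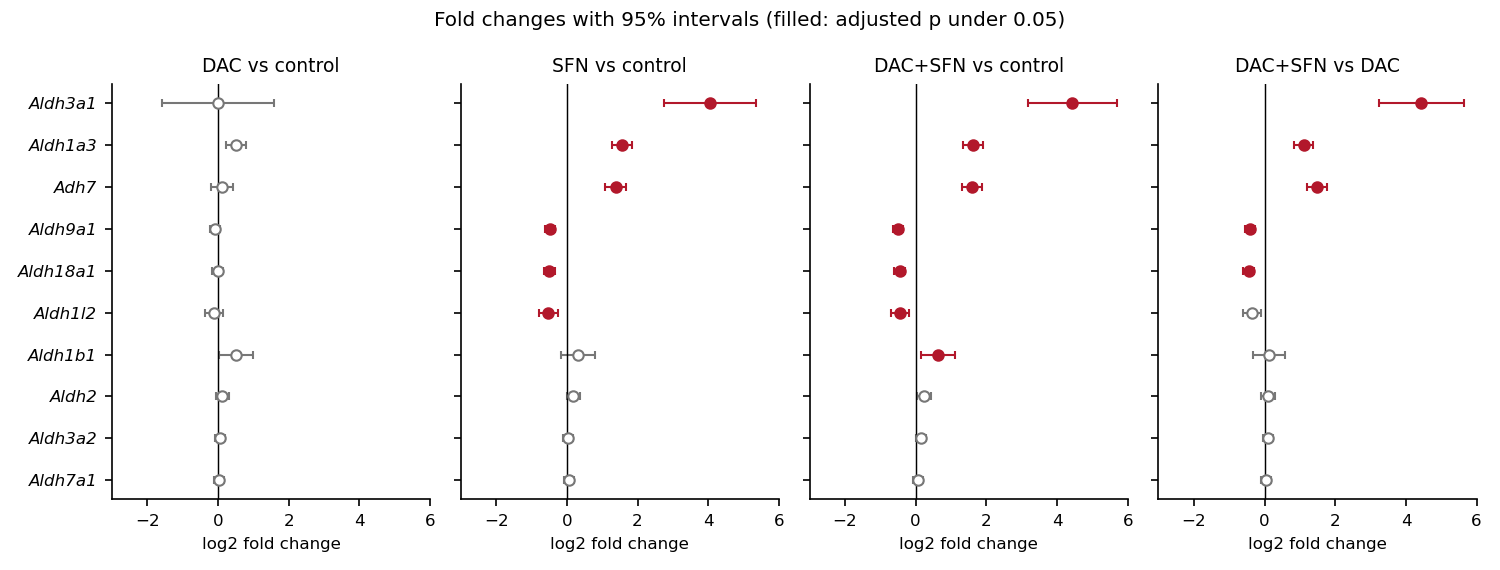
The x axis gives the log2 fold change of each gene (y axis) with its 95% interval in 4 comparisons. Filled symbols have an adjusted p under 0.05. With DAC alone 0 of 10 are filled, and the 3 comparisons with SFN show the same 3 genes far to the right and Aldh9a1 and Aldh18a1 left of 0.

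With DAC alone, 0 of the 10 genes were called by edgeR's quasi-likelihood test and 0 by DESeq2's Wald test, and 2 had an unadjusted p under 0.05 in edgeR. Of all genes tested, 0.180% were called with DAC. The log2 fold changes of the 10 genes lay between -0.10 and 0.51. The largest was that of Aldh1a3, with 7.66, 11.9 and 7.57 CPM after DAC and 6.30, 6.93 and 5.65 CPM in control. These groups did not overlap, and the log2 fold change was 0.51 (adjusted p = 0.174, SE 0.14). Aldh1a3 passed the threshold with DAC when no filter on low counts was used (adjusted p = 0.0409) and when the DAC and control libraries were fitted alone (0.0264). Aldh1b1 had a log2 fold change of 0.50 with DAC (adjusted p = 0.472, SE 0.23). Aldh3a1 had 1, 1 and 3 counts after DAC, which is too few to give a fold against the 1, 2 and 1 counts in control.

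The response to SFN on top of DAC was measured by comparing DAC+SFN with DAC. Aldh3a1, Aldh1a3 and Adh7 were again higher by more than 2-fold and Aldh9a1 and Aldh18a1 were lower. The 3 higher genes of 10 stand against 9.55% of all genes called higher and 0.730% also past 2-fold, and the 2 lower genes against 6.60% of all called lower. Aldh3a1 had to differ here too, and without it 2 of 9 genes were higher. The ratio of summed Aldh3a1 counts was 20.5 (95% counting interval 8.49 to 64.5), and its log2 fold change was 4.44 (adjusted p = 0.000197, SE 0.56). Aldh1a3 had a log2 fold change of 1.11 (adjusted p = 7.22e-05, SE 0.12), and Adh7, with 15.2, 20.7 and 16.2 CPM after DAC alone, of 1.48 (adjusted p = 2.88e-05, SE 0.14). Aldh9a1 had 135, 94.0 and 116 CPM after DAC and fell by 0.42 on the log2 scale when SFN was added (adjusted p = 0.00115, SE 0.07). Aldh18a1 had 207, 181 and 188 CPM after DAC and fell by 0.45 (adjusted p = 0.00120, SE 0.07). Aldh1l2 had 177, 95.3 and 129 CPM after DAC, and its log2 fold change of -0.35 (SE 0.12) was not called (adjusted p = 0.0579). Aldh1l2 was called lower with no filter on low counts (adjusted p = 0.00306), without DAC replicate 2 (0.0459) and without DAC+SFN replicate 3 (0.0177). Without the replicate block, 0 of the 5 called genes remained, with adjusted p-values of 0.0881 to 0.174, and over all genes the number called was 20 in place of 1879. The SFN against control and DAC+SFN against DAC comparisons share no library. They come from 1 model of all 12 libraries and the same 3 replicate numbers, so their likeness is not fully independent.

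No difference was called when DAC was added to SFN. Between DAC+SFN and SFN, 0 of 10 genes were called by edgeR and by DESeq2 and 0 had an unadjusted p under 0.05, where 1.61% of all genes were called. The log2 fold changes ranged from -0.04 to 0.37. The largest was that of Aldh3a1, at 0.37 (95% interval -0.34 to 1.09), followed by Aldh1b1 and then Adh7 at 0.21 (interval -0.06 to 0.48). The interaction, which asks whether the response to SFN differed with and without DAC, was called for 0 of the 10 genes by both tools and for 0 of 11638 genes in edgeR (0%). The 1 gene of 10 with an unadjusted p under 0.05 was Aldh1a3, whose interaction was -0.45 on the log2 scale (95% interval -0.83 to -0.07, adjusted p = 0.847), as its SFN response was 1.56 without DAC and 1.11 with DAC. By the labels the SFN dose differs between the 2 arms of both comparisons.

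The rest of the family was mostly low or not called. Of 16 other aldehyde and alcohol dehydrogenase genes in the tables, 8 were tested. With SFN 1 was called higher and 0 lower, against 8.27% and 5.65% of all genes, and the same counts held with DAC+SFN, against 17.0% and 14.7%. The called gene was Aldh4a1, which oxidizes the product of Prodh to glutamate, with a log2 fold change of 0.34 with SFN (adjusted p = 0.00790, SE 0.08) and of 0.62 with DAC+SFN (adjusted p = 4.49e-05, SE 0.08). The identifier printed beside Aldh4a1 in the tables differs from that of RefSeq, so it too was followed by symbol. The 8 genes not tested were Aldh1a1, Aldh1a7, Aldh3b2, Aldh3b3, Aldh8a1 and Adh6a, with at most 13 counts in any library, and Aldh1a2 and Adh4, at 0 in all of them. Of the retinal-oxidizing genes Aldh1a1, Aldh1a2 and Aldh1a3, only Aldh1a3 had more than 13 counts in a library.

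Of the 12 NRF2 targets, 10 were called higher and 0 lower with SFN, where 8.27% of all genes were called higher. Their median log2 fold change was 0.66, against 0.00 over all genes. With DAC+SFN, 11 were called higher and 0 lower, where 17.0% of all were called higher, with a median of 0.78 against 0.01. Nqo1, the quinone reductase, rose by 2.01 on the log2 scale with SFN (adjusted p = 1.16e-06, SE 0.14). Gclm, a subunit of the enzyme that starts glutathione synthesis, rose by 1.11 (adjusted p = 1.45e-05, SE 0.10). Srxn1, the sulfiredoxin that repairs peroxiredoxins, rose by 1.25 and G6pdx, which supplies NADPH, by 0.84 on the log2 scale. Aldh3a1 rose more than Nqo1 on the fitted log2 scale, but it had to differ and its controls held 1 or 2 counts each. It also rose more in replicates 1 and 3, while in replicate 2 the log2 difference was 0.21 for Aldh3a1 and 1.92 for Nqo1. Aldh1a3 and Adh7 rose by amounts between those of Gclm and Nqo1. These differences between genes were not tested.

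Besides the treatments, the level of many of the 10 genes differed between replicate numbers. Across the 3 numbers, 6 of the 10 genes differed (adjusted p under 0.05 in edgeR), against 33.9% of all genes. Adh7 had the smallest of these adjusted p-values (9.16e-05) and was higher in replicate 2 than in replicates 1 and 3 of every group. Aldh3a1 (0.000507) and Aldh1l2 (0.00444) differed too, and Aldh1l2 was lowest in replicate 2 in each group. The library numbers in the labels follow the replicate numbers, so the library batch and the culture cannot be told apart.

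The genes whose pattern was most like those of the 3 rising members were sought over the 12 libraries, as Pearson's r of log2 CPM after the mean of each replicate number was removed. These values share the treatments and libraries and are given as a description. For Aldh1a3 the closest were Fxyd5 (r = 0.995), Hmga2 (0.993) and Apod (0.989). For Adh7 they were Map6 (0.994) and the NRF2 targets G6pdx (0.992) and Srxn1 (0.992). For Aldh3a1 they were Tnfrsf23 (0.960), Tnfrsf19 (0.949) and Syt4 (0.945), lower values for a gene of few counts. Among the members themselves, Aldh1a3 and Adh7 had an r of 0.945. Many genes had higher values, as Adh7 ranked 169 for Aldh1a3 and Aldh1a3 ranked 97 for Adh7. Aldh1a3 and Aldh9a1, which moved in opposite directions, had an r of -0.985.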

How the data were processed

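RNA of 12 B16F10 cultures was sequenced from a stranded mRNA library kit with single 75-base reads. Per the study's methods and the submitters' processing notes, the authors used Trimmomatic 0.38 for trimming, TopHat2 2.1.1 for alignment to mm10 and HTSeq to count unique alignments per gene. The deposited values are raw counts per gene symbol, with no normalization. The gene annotation and the strand setting are not given in the sources used here, and reads from genes overlapping on opposite strands may be mixed.

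Condition and replicate number came from the labels. Genes with at least 1 CPM in 3 of 12 libraries were kept, scaled by TMM and tested with the two-sided quasi-likelihood F-test of edgeR 4.0.16 (legacy fit) in R 4.3.3, in 1 model of all 12 libraries with 6 contrasts and the replicate number as a block. Benjamini-Hochberg adjustment ran over all 11638 genes. Libraries with the same number deviated together (18 pairs, mean r 0.544, range 0.270 to 0.732). Those with different numbers had a mean r of -0.267 (36 pairs, range -0.597 to 0.282). The ranges overlapped slightly, and the numbers were taken as pairs on the means. Fold changes carry a prior count of 0.125 and log2 differences between libraries a prior count of 2. The SE of a log2 fold change was obtained by dividing it by √F. Intervals of count ratios are exact binomial (95%) and cover counting error only.

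Exon lengths and gene positions are from GENCODE on mm10 and promoter windows from RefSeq. Counts for SFN against control were also simulated over 11638 genes. There 42 of 50 genes with a 1.5-fold change and 49 of 50 with a 2-fold change were recovered, with 6 false calls. These numbers do not bear on the choice of the replicate block. The named genes are the 10 members in every comparison, from each list up to 4 genes called in SFN or DAC+SFN against control by smallest adjusted p, list genes not tested, and the 3 genes most like each rising member. Further list genes (Psat1, Pycr1, Prodh, Oat, Adh1, Crabp2, Rdh13, Pmel, Tyrp1) and D10Wsu102e were named after their values were seen. Some list genes are not reported here and were left out of the list counts. The members and lists were chosen with earlier results of these data known. Replicates were not copies, with a chi-square per gene of 13.2 to 35.9 between them. DESeq2 1.42.0 and other settings were tried as alternatives.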

Additional observations from a re-analysis of the deposited data

How the results depend on the processing

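The 18 called values of the 10 genes (log2 fold changes in the comparisons with SFN) were recomputed 267 times in all under the alternatives, which were DESeq2's size factors, its Wald test, the version 4 fit of edgeR, no filter, at least 10 counts in every library, no replicate block, a prior count of 2, a fit of only the groups compared, each library left out in turn and, added after the data were seen, all libraries of replicate number 2 left out. None changed direction, 243 remained called and 24 did not, 12 of these without the replicate block. Of the 42 values that were not called, 22 changed sign under some alternative, and 8 of 677 recomputed values were called. Among those printed, Aldh3a2 with SFN changed sign, to -0.042 with the libraries of replicate number 2 left out and to a range of -0.0235 to 0.0928 with single libraries left out.

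Without the replicate block, 1 in place of 3 members changed with SFN and 1 in place of 6 were called, and 0 in place of 3 changed and 0 in place of 5 were called for DAC+SFN against DAC. With DAC, 1 member (Aldh1a3) was called with no filter and with only the groups compared. With the libraries of replicate number 2 left out, 2 in place of 4 other list genes changed with SFN, and 0 in place of 6 members differed between replicate numbers. For DAC+SFN against DAC, 2 to 5 other list genes changed when single libraries were left out, in place of 3, with 5 without DAC replicate 1, DAC replicate 3 or DAC+SFN replicate 3. The causes were not tested. Aldh3a1 was not tested under the minimum of 10 counts in every library. With 1 to 3 counts in each library without SFN, its fold is limited by depth.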

Other observations

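Of 12 genes of aldehyde and carbonyl reduction or oxidation outside the aldehyde dehydrogenase family, 10 were tested. With SFN 1 was called higher and 0 lower, where 8.27% and 5.65% of all genes were, and with DAC+SFN 2 were called higher and 1 lower, where 17.0% and 14.7% of all genes were. Aox1, the aldehyde oxidase, had a log2 fold change of 0.99 with SFN (SE 0.11, adjusted p = 4.10e-05, edgeR's quasi-likelihood test) and rose by 1.18 on the log2 scale with DAC+SFN (SE 0.11, adjusted p = 3.84e-06). Its log2 differences between SFN and control were 0.91, 1.24 and 0.77 in replicates 1, 2 and 3. Adhfe1, a mitochondrial hydroxyacid dehydrogenase, fell by 0.40 on the log2 scale with DAC+SFN (SE 0.08, adjusted p = 0.00121), with a log2 fold change of -0.19 with SFN that was not called (adjusted p = 0.114). Akr1b8, an aldo-keto reductase, had a log2 fold change of 0.18 with DAC+SFN (SE 0.06, adjusted p = 0.0369). The 2 not tested were Ptgr1, with no more than 4 counts per library, and Akr1b3, at 0 throughout.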
